A study of Mus musculus with 6 samples.

Results

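The genes described here are 26 genes of GABA and glycine transmission, the machinery of fast inhibition in the spinal cord. They were taken by symbol from a table of 55487 genes, and all 26 were found. Of these, 24 had a mean of at least 1 TPM (transcript abundance corrected for length and expressed against a fixed total) over the 6 samples and entered the test of 15962 genes. Gabrd and Glra4 lay below that level. RNA sequencing was done on total RNA of thoracic cord segments dissected at birth (postnatal day 0), with 3 samples from WT (wild-type) mice and 3 from Myt1-/- mice (the mutants). The product of Myt1 is a neural transcription factor with zinc fingers, and the series asks which genes it controls. The labels do not give the design of the mutated allele, the strain, the sex, whether animals were pooled or whether each sample is a separate animal; p-values therefore reflect the spread among these 6 samples, which may be technical.

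GABA is made from glutamate by a pair of glutamate decarboxylases, loaded with glycine into vesicles by a shared transporter, and removed from the synapse by transporters on neurons and glia. GABA-A and glycine receptors are chloride channels built of several subunits, held at the synapse by the scaffold gephyrin, while GABA-B receptors act through G proteins. In the immature cord chloride import leaves neurons rich in chloride, and these receptors can excite; the chloride exporter later lowers chloride and makes them inhibitory. Many spinal inhibitory neurons release both GABA and glycine.

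Across the whole table the targeted gene, Myt1, was at 11.54, 11.53 and 13.61 TPM in WT cords and at 6.14, 5.36 and 5.28 TPM in mutant cords. The mutant mean was 0.457 of the WT mean, so Myt1 transcript remained in every library labelled Myt1-/- (limma adjusted p = 0.14). From gene-level TPM it cannot be read whether the transcript comes from the mutated allele or from an intact one, and the labels do not say which part of the gene the mutation removes. Some libraries stood apart from the rest of their group. WT replicate 1 had the highest share of mitochondrially encoded transcripts (11.35%, against 8.636% to 9.044% in the other 5). It also had the most Hoxd10, a gene of caudal segments, at 35.82 TPM against 7.67 to 12.49 TPM, and the lowest Hoxc9, a thoracic gene, at 20.28 TPM against 28.68 to 37.29 TPM. Skeletal muscle markers summed to 160.3 TPM in mutant replicate 3 and 72.74 TPM in WT replicate 3, against 15.82 to 20.54 TPM elsewhere. Sensory ganglion markers set the replicates numbered 3 apart in opposite directions, with the highest sum in WT replicate 3 (1124 TPM) and the lowest in mutant replicate 3 (470.4 TPM), against 686.8 to 892.9 TPM in the other 4. Scn10a, a sodium channel of sensory neurons, was at 22.21 TPM in the former and 0.04 TPM in the latter. Schwann cell markers summed to 186.0 to 304.6 TPM in WT cords and 122.3 to 180.4 TPM in mutant cords, without overlap. That list includes Sox10, which was also listed as a marker of oligodendrocyte precursors, and Foxd3, also listed as a spinal inhibitory interneuron factor. Sox10 was at 35.34 TPM in WT replicate 2 and 28.77 TPM in mutant replicate 1, the samples with the nearest sums. Without Sox10 the sums of the groups would overlap. Of the 12 ganglion and 11 Schwann cell markers all were tested and none was at 0 in every sample; their part in the results was not tested. Markers of the tissue were present: 18 of 20 spinal inhibitory interneuron factors and 17 of 18 excitatory neuron markers reached 1 TPM on average, and none was at 0 in every sample. Summed levels of the inhibitory list were 240.4 to 246.9 TPM in WT cords and 254.8 to 282.5 TPM in mutant cords. Those of the excitatory list were 351.4 to 372.6 against 374.3 to 398.6 TPM. In neither list did the sums of the groups overlap. The nearest sums of the excitatory list were 372.6 TPM in WT replicate 3 and 374.3 TPM in mutant replicate 2. Ebf2, 1 gene of that list, was at 27.77 and 31.45 TPM in these samples. Without Ebf2 the sums of the excitatory list would overlap. The pan-neuronal markers summed to 9241 to 9521 TPM in WT cords and 9077 to 9288 TPM in mutant cords, with all 18 tested.

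None of the 24 tested genes passed an adjusted p of 0.05 by limma, and neither did any gene of the whole table (0.0% called). At an unadjusted p under 0.05 there were 5 members, all higher in mutant cords: Gabra3, Glra2, Gphn, Gad1 and Gabra4. This is 20.8% of the 24, beside 4.32% of all genes tested that were higher at that level, and no member was lower, beside 3.13%. The members were chosen with earlier results of these data known. Their median within-group SD was 0.089 on the log2 scale, against 0.135 over all genes tested. The part of either in these shares was not tested. Every mutant sample lay above every WT sample in 4 members (Gabra3, Glra2, Gabra4 and Glra3), or 16.7%, beside 8.91% of all genes tested. Every mutant sample lay below every WT sample in 1 member (Slc12a2), or 4.17%, beside 5.38%. Of the tested markers, 3 of 18 inhibitory, 5 of 17 excitatory and 2 of 18 pan-neuronal ones lay above in this way. Those that lay below numbered 0, 1 and 2. Genes lying above were thus also found in these lists. The counts are small, stand beside the same 8.91% and 5.38% of all genes tested, and are not read as a result about a list. The median member differed by 0.029 on the log2(TPM + 1) scale and the median gene tested by 0.025. Counts of members depended on scaling and on single libraries. The 5 became 1, Gabra3, after median-ratio scaling and also without WT replicate 3. They became 3 without WT replicate 1, 2 without mutant replicate 1, and 3 without any other single library. In cord tissue, fewer cells of a type and less RNA per cell cannot be told apart.

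The changes were small, and for most members the 95% interval included 0. It lay above 0 only for Gabra3, Glra2, Gphn, Gad1 and Gabra4. Log2 differences of the 24 ran from -0.19 for Slc6a11 to 0.31 for Gphn. In 21 of the 24 the 95% interval, from limma, stayed within 0.5 of 0 on the log2 scale, and in 23 within 1. Gabra4 and Gphn exceeded only the narrower limit, and Gabra2 both. The SD between replicates was under 15% of the mean in both groups for 22 of the 24.

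**Figure D1:**
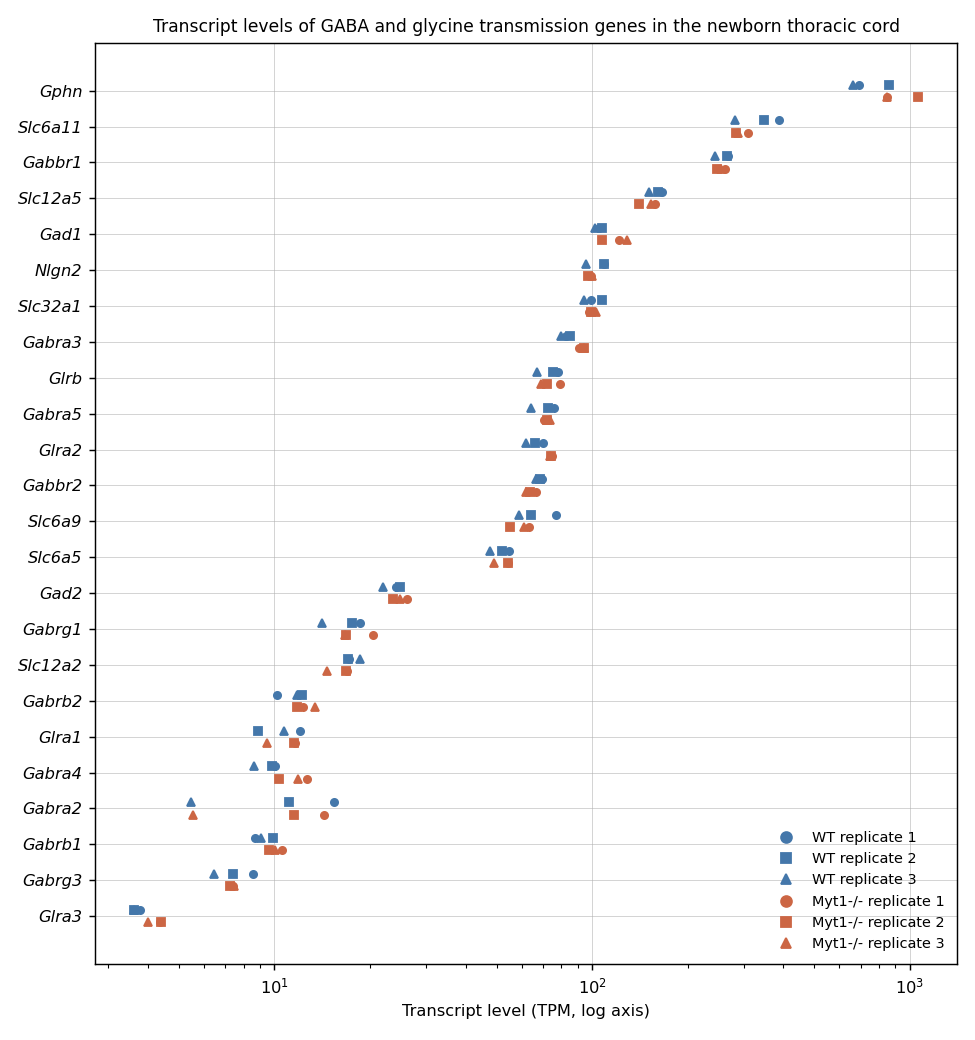
Transcript level in TPM (log axis) of the 24 genes with a mean of at least 1 TPM, ordered by mean level; each point is 1 sample, coloured by genotype and shaped by replicate number. Levels span from about 4 TPM for Glra3 to 828.5 TPM for Gphn, WT and mutant points lie close together, and the Gabra2 points of both replicates numbered 3 lie apart from the rest.

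**Figure D2:**
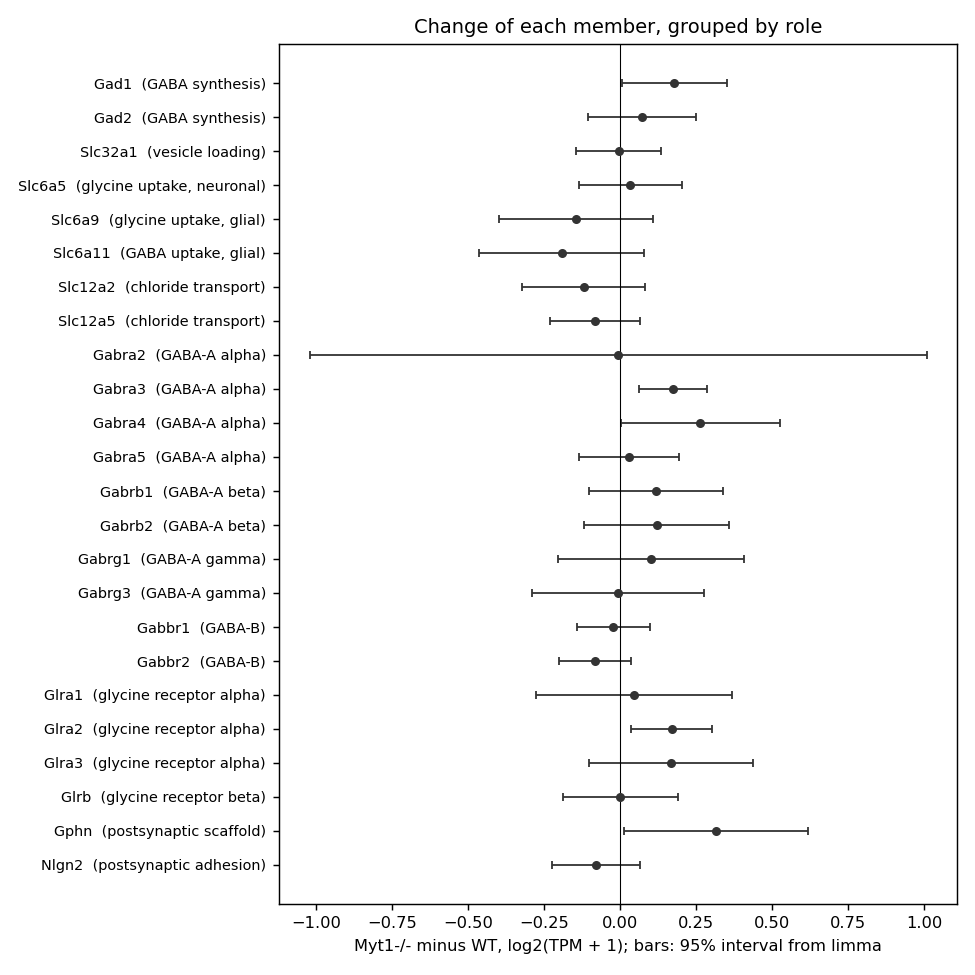
Log2 difference between mutant and WT (log2(TPM + 1)) for the 24 tested genes, grouped by role, with 95% intervals from limma. The intervals of Gad1, Gabra3, Gabra4, Glra2 and Gphn lie just above 0, no member passed the adjusted p, and the interval of Gabra2 is the widest.

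For the 4 members whose mutant samples all lay above the WT samples, the 250 bases before the annotated transcription start are shown, because the zinc fingers of Myt1 proteins are known to recognise AAGTT. The sequences are from RefSeq (GRCm38.p6) and are written 5′ to 3′ on the strand of the gene, with AAGTT or its reverse complement AACTT in capitals. They were chosen for their values. The windows are chrX:72656808-72657057 (minus strand) for Gabra3, chrX:165327394-165327643 (minus strand) for Glra2, chr5:71658309-71658558 (minus strand) for Gabra4 and chr8:55940168-55940417 (plus strand) for Glra3.
Gabra3: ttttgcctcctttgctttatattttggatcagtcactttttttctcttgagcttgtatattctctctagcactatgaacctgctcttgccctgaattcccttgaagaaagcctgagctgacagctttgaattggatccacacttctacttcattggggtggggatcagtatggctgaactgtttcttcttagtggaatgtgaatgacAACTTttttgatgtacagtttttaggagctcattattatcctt
Glra2: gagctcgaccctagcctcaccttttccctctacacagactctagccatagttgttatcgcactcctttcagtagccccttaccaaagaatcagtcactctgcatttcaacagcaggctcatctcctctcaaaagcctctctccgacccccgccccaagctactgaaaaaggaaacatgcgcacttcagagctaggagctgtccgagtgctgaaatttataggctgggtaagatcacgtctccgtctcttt
Gabra4: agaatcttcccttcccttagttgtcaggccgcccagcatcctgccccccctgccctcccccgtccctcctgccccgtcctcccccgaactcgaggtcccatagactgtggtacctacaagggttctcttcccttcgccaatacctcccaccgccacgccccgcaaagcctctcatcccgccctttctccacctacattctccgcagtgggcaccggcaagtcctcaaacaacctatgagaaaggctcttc
Glra3: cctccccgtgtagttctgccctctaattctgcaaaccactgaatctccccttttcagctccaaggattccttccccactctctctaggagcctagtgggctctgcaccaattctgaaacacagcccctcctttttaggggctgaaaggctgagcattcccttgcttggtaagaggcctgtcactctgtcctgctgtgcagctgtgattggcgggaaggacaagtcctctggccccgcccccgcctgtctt
The Gabra3 window holds 1 match, which begins 43 bases before the start. The other 3 windows hold 0. A further Gabra3 window, before a start that lies upstream, holds 1 match that begins 209 bases before it. Windows were held for 23 of the 26 members (31 windows, since some genes have several starts), and 9 of the 31 (29.0%) had a match on either strand. Among 32851 windows of the same length over all genes 35.3% had one. A match is a description of letters, not a binding site. The windows differed in base composition, with a GC share of 39.2% in the Gabra3 window and 61.2% in that of Gabra4, against a median of 52.4% over all windows.

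Among the genes that make and pack the transmitters, only Gad1 had an unadjusted p under 0.05. Gad1 (ENSMUSG00000070880, chromosome 2, 70553072 to 70602014, plus strand, GRCm38), the decarboxylase that makes most GABA in the cell body, was at 105.32, 107.76 and 102.09 TPM in WT cords and at 121.73, 107.20 and 128.72 TPM in mutant cords. Mutant replicates 1 and 3 lay above all WT samples, and mutant replicate 2 lay among them. Its mean was 105 ± 2.84 TPM in WT cords and 119 ± 11.0 TPM in mutant cords (SD, n = 3 each), a log2 difference of 0.18 (SE 0.07, 95% interval 0.004 to 0.35, adjusted p = 0.671 by limma). The unadjusted p was 0.0458 by limma; over all 16 fits, the one reported and 15 alternatives, it was under 0.05 in 6.

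Gad2, which encodes the decarboxylase concentrated at nerve endings, was at 24.16, 24.76 and 21.89 TPM in WT cords and at 26.04, 23.59 and 24.84 TPM in mutant cords. The groups overlapped, with a log2 difference of 0.07 (95% interval -0.11 to 0.25). Gad1 made up 81.7% ± 0.586 of the summed TPM of the decarboxylases in WT cords and 82.7% ± 0.977 in mutant cords (SD, n = 3 each). The Gad1 to Gad2 ratio was 4.36, 4.35 and 4.66 in WT cords and 4.67, 4.54 and 5.18 in mutant cords (exact two-sided permutation p = 0.2). With 3 samples against 3 that test cannot go below 0.1.

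Slc32a1, the vesicular transporter that loads both GABA and glycine, was at 99.40, 107.51 and 94.47 TPM in WT cords and at 97.67, 99.37 and 102.68 TPM in mutant cords. All 3 mutant values lay within the WT range. The log2 difference was -0.01, with a 95% interval of -0.145 to 0.13. An antisense gene, Gm14205, overlaps it over 911 bases and was at 29.0 TPM on average, so some reads may be shared if strand was not used in counting.

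Slc6a5, the glycine transporter of glycinergic nerve endings, was at 54.60, 51.88 and 47.81 TPM in WT cords and at 54.22, 54.41 and 49.17 TPM in mutant cords. The groups overlapped almost fully, with a log2 difference of 0.03 (95% interval -0.14 to 0.20). The ratio of Slc6a5 to Gad1 was 0.518, 0.481 and 0.468 in WT cords and 0.445, 0.508 and 0.382 in mutant cords. Its mean was 0.489 ± 0.026 and 0.445 ± 0.0628 (SD, n = 3 each; exact two-sided permutation p = 0.4), so the balance between the glycinergic and the GABA-making transcript differed by less than the spread in mutant cords.

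The glial transporters were the members with the lowest log2 differences. Slc6a11, a GABA transporter of astrocytes, was the second most abundant member, at 388.27, 347.41 and 281.78 TPM in WT cords and at 309.16, 284.40 and 288.48 TPM in mutant cords. The WT samples spread widely, and WT replicate 3 lay below every mutant sample. The log2 difference was -0.19 (95% interval -0.46 to 0.08, limma adjusted p = 0.723). Leaving out WT replicate 3 gave -0.32, and leaving out WT replicate 1, the library with the highest value, gave -0.09.

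Slc6a9, the glycine transporter found mainly on glia, was at 77.11, 64.19 and 58.93 TPM in WT cords and at 63.37, 55.28 and 61.13 TPM in mutant cords. Here too WT replicate 1 was highest and the groups overlapped, with a log2 difference of -0.15 (95% interval -0.40 to 0.11). Without WT replicate 1 it was -0.04. The gene shares 5939 bases with B4galt2 on the opposite strand, which was at 95.5 TPM. Of 12 astrocyte markers all 12 were tested and none was at 0 in every sample; their summed level was 1652 to 2184 TPM in WT cords and 1547 to 1823 TPM in mutant cords. WT replicate 1 had the highest astrocyte sum and the highest level of both transporters. The part of astrocyte RNA in these values was not tested.

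The chloride transporters kept nearly the same ratio in both genotypes. Slc12a5, the potassium-chloride exporter of mature neurons, was at 165.62, 161.19 and 150.49 TPM in WT cords and at 157.69, 139.90 and 152.84 TPM in mutant cords. The ranges overlapped, and the log2 difference was -0.08 (95% interval -0.23 to 0.06).

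Slc12a2, the sodium-potassium-chloride importer, which is also used by glia and other cells, was at 17.20, 17.02 and 18.56 TPM in WT cords and at 16.88, 16.81 and 14.66 TPM in mutant cords. Every mutant sample lay below every WT sample, with a narrow gap between the closest samples. The log2 difference was -0.12 (95% interval -0.32 to 0.08, unadjusted p = 0.198 and adjusted p = 0.744 by limma). The exporter exceeded the importer 9.63, 9.47 and 8.11 times in the WT samples and 9.34, 8.32 and 10.4 times in the mutant samples. The difference of the log2 ratios was 0.044 (exact two-sided permutation p = 0.8), and it changed sign without either replicate numbered 3. In whole cord these levels mix neurons with other cells.

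Subunits of the GABA-A receptor covered a wide range of levels, with alpha 3 and alpha 5 the most abundant of the alpha members. Gabra3 (ENSMUSG00000031343, chromosome X, 72432681 to 72656848, minus strand), which encodes the alpha 3 subunit, was at 82.87, 85.30 and 79.84 TPM in WT cords and at 90.76, 94.47 and 94.53 TPM in mutant cords. The mutant samples all lay above the WT samples. Its mean was 82.7 ± 2.74 TPM in WT cords and 93.3 ± 2.16 TPM in mutant cords (SD, n = 3 each), a ratio of 1.13. The log2 difference was 0.17 (SE 0.05, 95% interval 0.06 to 0.28), with an unadjusted p of 0.0081 and an adjusted p of 0.669 by limma. Of the 24 genes it had the lowest unadjusted p, and the only one under 0.05 in all 16 fits, where it reached at most 0.0479. With any 1 library left out the log2 difference stayed between 0.148 and 0.195.

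Gabra5, encoding the alpha 5 subunit of receptors found mostly outside synapses, averaged 70.9 ± 5.94 TPM in WT cords and 72.0 ± 1.57 TPM in mutant cords (SD, n = 3 each). Its 95% interval was -0.14 to 0.19, and the gene overlaps another on the opposite strand over 90368 bases. Gabra4, the alpha 4 subunit, was at 10.07, 9.81 and 8.62 TPM in WT cords and at 12.69, 10.32 and 11.84 TPM in mutant cords. The mutant samples lay above the WT samples, the nearest by a margin smaller than either SD. The log2 difference was 0.26 (SE 0.11, 95% interval 0.002 to 0.52, unadjusted p = 0.0487 and adjusted p = 0.671 by limma).

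Of the summed TPM of Gabra2, Gabra3, Gabra4 and Gabra5, Gabra3 made up 47.7% ± 2.74 in WT cords and 49.8% ± 1.41 in mutant cords, and Gabra5 40.8% ± 0.354 and 38.4% ± 1.14 (SD, n = 3 each). Gabra4 held 5.47% ± 0.0224 and 6.20% ± 0.648. A share falls when another member of the sum is higher, so the shares are not independent of each other. Gabra3 was the highest and Gabra5 the next in all 6 samples, while Gabra2 lay above Gabra4 in the replicates numbered 1 and 2 of both genotypes and below it in those numbered 3.

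**Figure D3:**
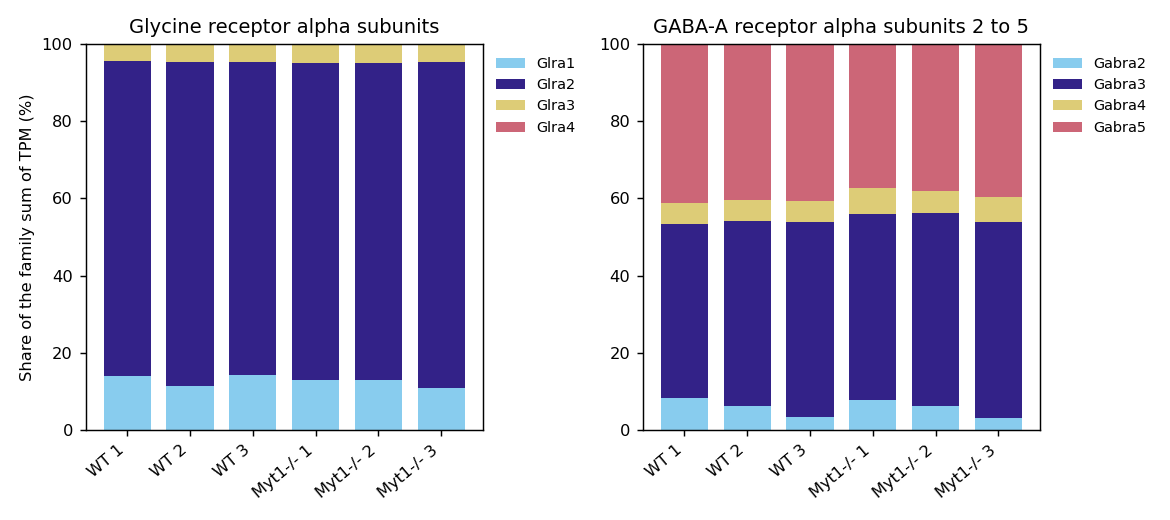
Share of each subunit in the summed TPM of the glycine receptor alpha subunits (left) and of GABA-A receptor alpha subunits 2 to 5 (right), 1 bar a sample. Glra2 holds 81.2% to 84.5% of its family and Gabra3 45.0% to 50.9% of its own, and the share of Gabra2 is smallest in the replicates numbered 3 of both genotypes.

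Gabra2 did not differ between genotypes but varied most within them. The gene (ENSMUSG00000000560, chromosome 5, 70957597 to 71095849, minus strand), which encodes the alpha 2 subunit common in the developing nervous system, was at 15.38, 11.09 and 5.46 TPM in WT cords and at 14.34, 11.50 and 5.56 TPM in mutant cords. The highest value in each group was 2.58 to 2.82 times the lowest, and the samples of both groups that carry the number 3 were the low ones. The log2 difference between genotypes was -0.01, with a 95% interval of -1.02 to 1.01, too wide to show that the genotypes are alike. Its within-group SD was 0.662 on the log2 scale, against at most 0.194 in the other 23 tested members and a median of 0.135 over all genes tested. Of all genes tested 3.73% had a larger within-group SD, and of the 5112 genes at 5 to 20 TPM 3.70% had.

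The labels do not say that a replicate number marks a litter or a batch, and same-numbered samples did not deviate together across the genes tested (correlations of 0.031, -0.07 and 0.061). The libraries numbered 3 were also the ones with the most skeletal muscle transcripts, at 72.74 TPM in WT cords and 160.3 TPM in mutant cords. Whether that bears on Gabra2 was not tested. Gabra2 mRNA is known to differ between inbred mouse strains, and the labels name no strain.

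Gabra2 lies in a cluster on chromosome 5 with Gabrg1, Gabra4 and Gabrb1, and its neighbours did not show the same spread. Gabrg1, which encodes a gamma subunit, was at 18.53, 17.59 and 14.11 TPM in WT cords and at 20.40, 16.82 and 16.70 TPM in mutant cords. Both libraries numbered 3 were lowest in their group, but the ranges of the groups overlapped and the lowest value was 14.11 TPM. Gabrb1, a beta subunit, was at 8.66, 9.91 and 9.06 TPM in WT cords and at 10.56, 9.58 and 10.07 TPM in mutant cords, with the lowest value in a sample numbered 1 and in a sample numbered 2. Gabra4 and Gabrb1 start head to head and share 196 bases on opposite strands, so reads there are uncertain.

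**Figure D4:**
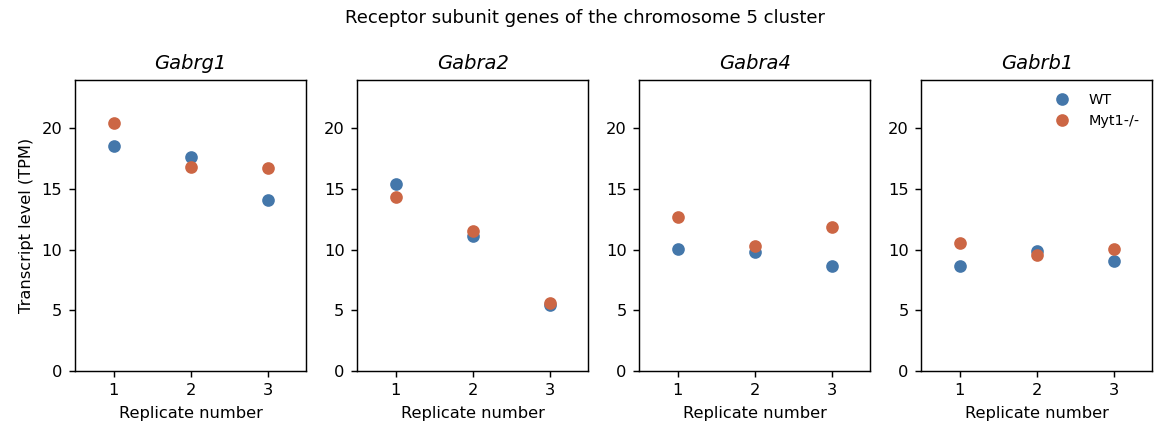
Transcript level in TPM of the 4 receptor subunit genes of the chromosome 5 cluster, by replicate number, in WT cords and mutant samples; each point is 1 sample. Gabra2 lies at 5.46 and 5.56 TPM in the replicates numbered 3 and between 11.09 and 15.38 TPM in the others, while the points of Gabra4 and Gabrb1 stay between 8.62 and 12.69 TPM.

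The other tested GABA-A members overlapped between genotypes. Gabrb2, a beta subunit, averaged 11.4 ± 1.07 TPM in WT cords and 12.5 ± 0.828 TPM in mutant cords, and Gabrg3, a gamma subunit, 7.47 ± 1.06 and 7.38 ± 0.106 TPM (SD, n = 3 each). Their 95% intervals were -0.12 to 0.36 and -0.29 to 0.27. Gabrd, the delta subunit of extrasynaptic receptors, was at 0.31, 0.50 and 0.58 TPM in WT cords and at 0.26, 0.31 and 0.20 TPM in mutant cords. The mutant mean was 0.554 of the WT mean, but the gene was too low to be tested, and the groups met at 0.31 TPM.

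GABA-B receptors need both of their subunits to signal, and the subunit transcripts were at unequal levels. Gabbr1, which binds GABA, averaged 259 ± 13.2 TPM in WT cords and 255 ± 7.01 TPM in mutant cords, with a 95% interval of the log2 difference of -0.14 to 0.10. Gabbr2, which couples to G proteins, averaged 68.1 ± 1.43 and 64.2 ± 2.39 TPM (SD, n = 3 each), with an interval of -0.20 to 0.03. The highest mutant value of Gabbr2, 66.78 TPM, just exceeded the lowest WT value, 66.57 TPM.

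Among the alpha subunits of glycine receptors the fetal one had the highest level in both genotypes. Glra2 (ENSMUSG00000018589, chromosome X, 165129017 to 165327393, minus strand), the alpha 2 subunit of immature receptors, was at 69.78, 66.23 and 61.87 TPM in WT cords and at 74.71, 74.13 and 73.57 TPM in mutant cords. Every mutant sample lay above every WT sample, and the mutant samples lay within 1.14 TPM of each other. Its mean was 66.0 ± 3.96 TPM in WT cords and 74.1 ± 0.570 TPM in mutant cords (SD, n = 3 each), a ratio of 1.12. The log2 difference was 0.17 (SE 0.06, 95% interval 0.035 to 0.30, unadjusted p = 0.0209 and adjusted p = 0.669 by limma). The unadjusted p was under 0.05 in 12 of the 16 fits and was 0.0922 at most, after median-ratio scaling.

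Glra1, the alpha 1 subunit of adult synaptic receptors, was at 12.0, 8.88 and 10.73 TPM in WT cords and at 11.61, 11.54 and 9.47 TPM in mutant cords. The groups overlapped, with a log2 difference of 0.05 (95% interval -0.28 to 0.37). The ratio of Glra1 to Glra2 was 0.172, 0.134 and 0.173 in WT cords and 0.155, 0.156 and 0.129 in mutant cords. The means, 0.160 ± 0.0223 and 0.147 ± 0.0155 (SD, n = 3 each), differed by less than the spread (exact two-sided permutation p = 0.5). Glra2 made up 82.2% ± 1.58 of the alpha subunit sum in WT cords and 83.0% ± 1.27 in mutant cords.

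Glra3, an alpha subunit known from pain circuits of the dorsal horn, was at 3.77, 3.62 and 3.62 TPM in WT cords and at 4.36, 4.38 and 3.99 TPM in mutant cords. All mutant values exceeded the WT values, by little, and the limma p was 0.186 unadjusted (adjusted p = 0.739) with a log2 difference of 0.17. Glra4 was at 0.06, 0.06 and 0.00 TPM in WT cords and at 0.11, 0.06 and 0.06 TPM in mutant cords, close to the lowest values the table can hold. Glrb, the beta subunit that ties glycine receptors to gephyrin, was at 78.19, 75.19 and 66.84 TPM in WT cords and at 79.16, 72.11 and 68.91 TPM in mutant cords. The means were 73.4 TPM in both groups, with a 95% interval of -0.19 to 0.19. Glrb lay above Glra2 in every WT sample and in mutant replicate 1.

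The postsynaptic scaffold had the highest level of all members. Gphn (ENSMUSG00000047454, chromosome 12, 78226379 to 78684772, plus strand), which encodes gephyrin, was at 693.10, 858.99 and 663.78 TPM in WT cords and at 847.29, 1062.23 and 845.48 TPM in mutant cords. The highest WT sample lay above mutant replicates 1 and 3, and mutant replicate 2 was highest of all. Its mean was 739 ± 105 TPM in WT cords and 918 ± 125 TPM in mutant cords (SD, n = 3 each), a ratio of 1.24 and a log2 difference of 0.31 (SE 0.13, 95% interval 0.01 to 0.62, unadjusted p = 0.0432 and adjusted p = 0.669 by limma). The unadjusted p was under 0.05 in 8 of the 16 fits.

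Gephyrin also makes the molybdenum cofactor outside synapses, so the gene is not confined to inhibitory neurons. GENCODE lists 3 Gphn transcripts, of 3570, 3300 and 484 bases, the last a retained intron. TPM divide by length, so reads on a short transcript weigh more, and the gene's value does not show which transcript carried it. Nlgn2, an adhesion protein of inhibitory synapses, averaged 105 ± 7.59 TPM in WT cords and 98.7 ± 1.38 TPM in mutant cords (SD, n = 3 each), with a 95% interval of -0.23 to 0.065.

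Ordered by level over all 6 samples, Gphn (828.5 TPM) was followed by Slc6a11 (316.6 TPM), Gabbr1 (256.7 TPM), Slc12a5 (154.6 TPM) and Gad1 (112.1 TPM). Of the 25 neighbouring pairs in that order 12 had overlapping ranges. Gad1, Nlgn2, Slc32a1 and Gabra3 formed a run in which each overlapped the next, as did Glrb, Gabra5, Glra2, Gabbr2 and Slc6a9. Gabrb2, Glra1, Gabra4, Gabra2 and Gabrb1 formed a further run near 10 TPM.

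Other genes of the same pathways were counted by list, and none passed an adjusted p of 0.05. Beside these counts, 4.32% of all genes tested were higher and 3.13% lower at an unadjusted p under 0.05, and the 1 or 2 genes of a list are not read as a result about that list. Of 22 tested genes of GABA and glycine uptake, breakdown and precursor supply, 1 was higher and 0 lower at an unadjusted p under 0.05 (median -0.01). It was Slc38a1, a glutamine transporter that supplies neurons that make GABA, at 65.9 ± 2.36 TPM in WT cords and 73.3 ± 0.472 TPM in mutant cords (SD, n = 3 each; limma adjusted p = 0.669). Slc7a10, an amino acid exchanger of astrocytes, was at 27.2 ± 9.72 and 18.6 ± 2.18 TPM without reaching that level, and Glud1, glutamate dehydrogenase, at 353 ± 49.7 and 320 ± 23.0 TPM.

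Of 30 tested genes of the inhibitory postsynapse and of receptor trafficking, 0 were higher and 2 lower at an unadjusted p under 0.05 (median 0.01). These were Dag1, encoding dystroglycan, which is found at inhibitory synapses, at 84.6 ± 3.79 TPM in WT cords and 76.8 ± 3.12 TPM in mutant cords, and Insyn1, an inhibitory synaptic factor, at 70.4 ± 1.88 and 65.2 ± 0.412 TPM (SD, n = 3 each; limma adjusted p = 0.669 and 0.671). The next by p were Nrxn3, a presynaptic neurexin, at 46.5 ± 2.66 and 51.3 ± 2.11 TPM, and Mdga2, which binds neuroligins, at 17.3 ± 1.32 and 19.7 ± 0.947 TPM. Of 12 tested GABA-B receptor partners, 1 was higher and 0 lower (median 0.00). Kcnj3, a potassium channel subunit opened by these receptors, was at 11.1 ± 0.951 and 14.0 ± 0.996 TPM (limma adjusted p = 0.669). Kctd12, an auxiliary subunit, was at 54.5 ± 2.01 and 59.4 ± 1.52 TPM, and Gnai1, an inhibitory G protein subunit, at 83.5 ± 1.77 and 89.2 ± 0.551 TPM. App, the amyloid precursor protein, which binds GABA-B receptors, was at 793 ± 12.6 and 754 ± 18.4 TPM. None of these 3 reached that level.

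Of 21 tested chloride transporters, channels and their kinases, 0 were higher and 2 lower at an unadjusted p under 0.05 (median -0.01). Car2, a carbonic anhydrase that glia and oligodendrocytes also express, was at 38.7 ± 4.05 TPM in WT cords and 26.7 ± 2.24 TPM in mutant cords, and Slc12a4, a potassium-chloride exporter of many cell types, at 13.7 ± 0.724 and 10.8 ± 0.114 TPM (SD, n = 3 each; limma adjusted p = 0.457 and 0.669). Oligodendrocyte markers, all 12 tested and none at 0 in every sample, summed to 465.4 to 925.5 TPM in WT cords and 189.5 to 225.8 TPM in mutant cords; their part in the Car2 values was not tested. Slc12a9, a relative of the chloride cotransporters, was at 13.8 ± 1.32 and 12.2 ± 1.04 TPM, and Wnk4, a kinase that regulates them, at 4.63 ± 0.367 and 6.50 ± 2.59 TPM. Of 5 tested GABA-A and GABA-rho subunits outside the 26, 1 was higher and 0 lower (median -0.10); Gabrq, the theta subunit, was at 8.79 ± 0.546 and 8.11 ± 0.552 TPM, and Gabre, the epsilon subunit, at 1.32 ± 0.127 and 1.01 ± 0.185 TPM.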

How the data were processed

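RNA was sequenced from newborn thoracic cord, with 3 WT and 3 Myt1-/- samples grouped by their labels. The authors deposited 1 TPM value per gene and sample; RSEM, DESeq2 and GRCm38.p6 are named in the submitters' processing notes without a role. The aligner, annotation release, strand setting and read filters are not stated. The table holds no counts, so depth is unknown and precision rests on the spread between samples. TPM columns summed to 993139 to 994687. A further 1 column of per-sample values has a heading that names a heterozygote, matched no labelled sample and was left out.

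log2(TPM + 1) was fitted by limma 3.58.1 (R 4.3.3) with a variance trend and genotype as the only term, for the 15962 genes with a mean of at least 1 TPM (39525 left out). Two-sided p-values were adjusted over all genes tested (Benjamini-Hochberg); 95% intervals come from this fit. The fit was checked on simulated data. There it called 46.4% of genes raised 1.5-fold, 76.0% of those raised 2-fold, 71.2% of those lowered 2-fold and 98.0% of those raised 4-fold. Of unchanged genes 0.0571% were called. No change as small as those of the members was simulated, so the check does not show how often such changes would be called. In the real data no gene passed, including Myt1 at 0.457 of its WT mean (limma adjusted p = 0.14), so these shares cannot be taken as rates there. The 4 ratios of genes were tested by exact permutation (scipy 1.17.1). Gene positions come from GENCODE M21 (GRCm38). The members and lists were chosen with earlier results of these data known. Values in every sample are given for the main enzymes, transporters, glycine receptor genes and Gphn, and for members with an unadjusted p under 0.05 or groups that do not overlap; up to 4 genes with the smallest p were to be named per further list. Family shares, the spread of Gabra2 and the promoter letters were added after values were seen. Some genes covered by this rule are not reported here, for a reason other than their values; they remain in all fits and counts. Alternatives were a pseudocount of 0.1, other filters, no trend, robust empirical Bayes, replicate number as a block, other scalings and leaving out samples.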

Additional observations from a re-analysis of the deposited data

How the results depend on the processing

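No member passed an adjusted p of 0.05 in any of the 15 alternatives. Over all genes, 1 was called with a pseudocount of 0.1 and 1 with robust empirical Bayes, 0 to 7 with 1 sample left out, and 3 without WT replicate 1 and mutant replicate 3 together, an alternative chosen after seeing the data. Genes at an unadjusted p under 0.05 numbered 711 to 1496 with 1 sample left out. Members higher at that level numbered 3 with no filter, with robust empirical Bayes, with mitochondrial genes removed and with replicate number as a block, 1 after median-ratio scaling, 1 to 3 with 1 sample left out and 2 without both libraries named above. Members lower numbered 0 to 2 with 1 sample left out, the 2 being Slc6a11 and Nlgn2 without WT replicate 3. Same-numbered samples did not deviate together across all genes tested (correlations of 0.031, -0.07 and 0.061), and the labels give the numbers no meaning, so the block was not taken as a pairing. Gabra2, Gabrg1, Glrb, Glra2, Gabbr2 and Gphn followed the same order of numbers in both genotypes, and the other tested members did not. Whether that is more than unrelated orders would give was not tested. Under the block the Gphn p was 0.000422, unadjusted, by limma, the lowest of its 16 fits. The limma adjusted p of Gphn was at least 0.539 in every fit. The cause of these shifts was not tested.

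Of the 24 members tested, 14 kept their sign in every alternative. With 1 sample left out, log2 differences ranged from -0.0491 to 0.0433 for Slc32a1, -0.0182 to 0.0793 for Slc6a5, -0.38 to 0.35 for Gabra2, -0.0409 to 0.0769 for Gabra5, -0.0118 to 0.17 for Gabrg1, -0.10 to 0.0822 for Gabrg3, -0.0658 to 0.00137 for Gabbr1, -0.0619 to 0.14 for Glra1 and -0.0646 to 0.0469 for Glrb. The Slc12a5 to Slc12a2 log2 ratio ranged from -0.036 to 0.126. Median-ratio scaling gave -8.17e-05 for Gabra5 and -0.0261 for Glrb, and removing mitochondrial genes gave -0.00748 for Glrb. Without WT replicate 1 and mutant replicate 3 together the values were 0.65 for Gabra2, -0.00117 for Gabrb2, 0.0753 for Gabrg3 and 0.00257 for Gabbr1. The median of the members stayed between -0.03 and 0.08 over all alternatives. Depth cannot be read from TPM, so a limit of detection for Gabrd and Glra4 cannot be given.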
